A study of Rattus norvegicus with 3 samples.

Results

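Myelin is a membrane rich in galactolipid and sphingolipid, and 10 rat genes that build these lipids were followed in sciatic nerve, chosen by name for their step in the pathway. All 10 were found among the 22608 genes of the mRNA table, and all 10 had a mean level of at least 1 CPM, as did 14427 genes in all. CPM scales the count of a gene to a library total of 1000000 counts. The nerves came from male Sprague-Dawley (SD) rats, sampled 30 days after surgery per the labels, and each of the 3 groups had 1 library. In the AKBA group the nerve was crushed with vascular forceps and the animals were given AKBA (acetyl-keto-boswellic acid, from Boswellia resin), and the sources used here state neither dose nor duration. In the model group the nerve was crushed; its treatment label reads only control, and it is taken as the crushed nerve without AKBA from the letter M of its title and from the groups the series names. In the sham group the nerve was exposed and left uncrushed. The labels do not say if several animals were pooled for a library, and they name no transgene.

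Sphingolipid synthesis starts in the endoplasmic reticulum, where serine palmitoyltransferase (Sptlc1 with Sptlc2) joins serine to a fatty acid, ceramide synthases such as Cers2 attach a very long acyl chain, which the elongases Elovl1 and Elovl7 can lengthen, and the desaturase Degs1 completes ceramide. In myelinating Schwann cells, the glia that wrap peripheral axons, Fa2h hydroxylates the fatty acid, Ugt8 adds galactose to make galactosylceramide and Gal3st1 adds sulfate to make sulfatide. Sgms1 instead turns ceramide into sphingomyelin. Galactosylceramide and sulfatide are classic myelin lipids, needed for stable paranodal contacts between glia and axon.

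Model against sham sets the crushed nerve without AKBA beside the uncrushed nerve. All 10 genes were higher in the model library than in sham, whereas 71.0% of all genes were. The 3 genes of the galactolipid branch and the elongase gene Elovl7 stood furthest apart. Fa2h was 3.12-fold, Gal3st1 2.32-fold, Elovl7 2.24-fold and Ugt8 1.95-fold the sham level. The 6 genes of the general ceramide and sphingomyelin steps were 1.41-fold to 1.79-fold. A gene was called higher or lower at 2-fold or more on the scale log2 of (CPM + 1), and by that rule Fa2h, Gal3st1 and Elovl7 were called. These are 3 of 10, beside 4.52% of all genes called higher. None of the 10 was called lower, beside 1.31% of all genes. With 1 library a group there is no replicate check and no p-value, and every ratio compares libraries, not conditions. Fewer cells of a type and less RNA per cell cannot be told apart in such tissue RNA.

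The libraries were not alike in scale or makeup. They held 90071899 counts (AKBA), 89505656 counts (model) and 74184217 counts (sham). The log2 ratio of model over sham had a median of 0.18 over all genes, and TMM scaling, which assumes that most genes do not differ, shifted it by -0.20. For AKBA over model that median was -0.04 and the shift 0.05, and for AKBA over sham 0.16 and -0.15. The 8 Schwann cell lineage markers, the defining genes of nerve glia, had counts in every library and summed to 23739 CPM in AKBA, 26418 CPM in model and 9693 CPM in sham. Their median log2 ratio was 0.63 in model over sham, where 3 of 8 were called higher, 0.40 in AKBA over model, where 0 were, and 1.23 in AKBA over sham, where 6 were. Of all genes 4.52%, 2.69% and 5.83% were called higher in these 3 comparisons. With TMM scaling 2, 0 and 5 of the 8 markers were. The 15 myelin protein genes, which include 2 of these 8, summed to 38539 CPM in AKBA, 43157 CPM in model and 18221 CPM in sham. The 17 fat cell genes, none at 0, summed to 3707 CPM in AKBA, 7539 CPM in model and 13605 CPM in sham, and 20 skeletal muscle genes, none at 0, to 7409, 991 and 491 CPM in the same order. The 18 macrophage genes, none at 0, summed to 4311, 2535 and 3614 CPM, and 14 skin and hair genes apart from Fa2h to 133, 11.5 and 11.8 CPM, with Elovl3 at 0 in all 3 libraries, Dsg1 at 0 in model and sham, Krtap7-1 and Cers3 at 0 in model and Lor at 0 in sham. Their part in the results that follow was not tested.

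**Figure D1:**
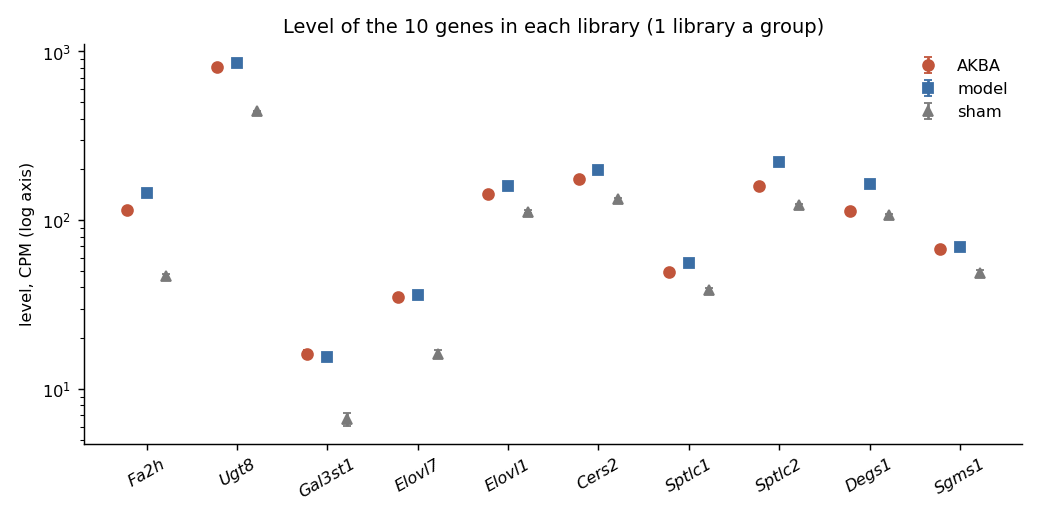
Level of each of the 10 genes in CPM (log axis) in the AKBA, model and sham libraries, with bars for the exact 95% counting interval. In each gene the sham triangle is the lowest of the 3 points (with TMM scaling it would not be in Degs1), and the AKBA and model points lie close together for Gal3st1, Elovl7 and Sgms1. Levels of different genes are not comparable here, since CPM is not divided by transcript length.

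Of the galactolipid branch, Fa2h, which makes the 2-hydroxylated fatty acids typical of myelin galactolipids, had 115 CPM in AKBA, 146 CPM in model and 46.7 CPM in sham. Model was highest and sham lowest. The ratio of model to sham was 3.12 with an exact 95% counting interval of 3.003 to 3.24, and only 0.756% of all genes had a ratio as large or larger. Fa2h kept its call under TMM scaling (log2 ratio 1.41, against 1.62 with total counts). It was the only one of the 10 to do so in model over sham (1 of 10, beside 2.63% of all genes called higher with TMM).

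Ugt8, the galactosyltransferase that commits ceramide to the galactolipid branch, had 804 CPM in AKBA, 858 CPM in model and 441 CPM in sham. The 2 crushed nerves stood together, well above sham. Ugt8 fell just short of the 2-fold call in model over sham (log2 ratio 0.96; fold 1.95, interval 1.92 to 1.97), and 5.02% of all genes had a ratio as large or larger. It rested on the largest counts of the group, 72420 in AKBA, 76800 in model and 32718 in sham.

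Gal3st1, the sulfotransferase that makes sulfatide, had 16.2 CPM in AKBA, 15.4 CPM in model and 6.65 CPM in sham, from 1458, 1380 and 493 counts. By total counts it was the one member of the 10 that was not lower in AKBA than in model (with TMM scaling Sgms1 and Elovl7 were not lower either), and the interval of that ratio, 0.975 to 1.13, held 1. Its ratio of model to sham was 2.32 (2.09 to 2.58), and the call was lost with TMM scaling (log2 ratio 0.91, against 1.10).

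Elovl7, an elongase of very long saturated acyl chains, had 35.2 CPM in AKBA, 36.1 CPM in model and 16.1 CPM in sham. Sham was lowest, and AKBA and model lay close together, in an order that depended on the scaling. The ratio of model to sham was 2.24 (2.10 to 2.40), just inside the call with a log2 ratio of 1.12 and just outside it with TMM scaling (0.91). The intervals of Elovl7 and Gal3st1 overlapped, so their ratios were not distinguishable by counting error alone.

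The promoter windows of these 4 genes are shown because the 4 stood furthest from sham. Each runs from 250 bases before to 50 bases after the annotated start, from RefSeq on build GRCr8, 5′ to 3′ on the strand of the gene, and all 10 genes matched an entry. They lie at chr19:56273431-56273730, minus strand (Fa2h), chr2:217007118-217007417, minus strand (Ugt8), chr14:83094135-83094434, plus strand (Gal3st1), and chr2:41562612-41562911, plus strand (Elovl7). Capitals mark CCAAT or its reverse complement ATTGG and GGGCGG or its reverse complement CCGCCC, of which the Elovl7 window has none.
Fa2h: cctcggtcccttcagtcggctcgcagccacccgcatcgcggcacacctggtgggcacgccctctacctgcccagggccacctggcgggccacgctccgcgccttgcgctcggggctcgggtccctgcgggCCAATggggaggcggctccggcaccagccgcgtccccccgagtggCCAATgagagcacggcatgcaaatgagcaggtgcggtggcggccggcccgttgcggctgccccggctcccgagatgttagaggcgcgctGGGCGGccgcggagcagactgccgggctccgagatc
Ugt8: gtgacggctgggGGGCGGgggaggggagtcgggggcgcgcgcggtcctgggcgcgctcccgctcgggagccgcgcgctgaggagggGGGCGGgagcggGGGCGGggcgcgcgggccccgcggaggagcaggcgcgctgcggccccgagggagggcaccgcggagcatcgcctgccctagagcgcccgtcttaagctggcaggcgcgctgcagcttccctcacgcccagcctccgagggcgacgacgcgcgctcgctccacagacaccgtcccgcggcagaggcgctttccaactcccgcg
Gal3st1: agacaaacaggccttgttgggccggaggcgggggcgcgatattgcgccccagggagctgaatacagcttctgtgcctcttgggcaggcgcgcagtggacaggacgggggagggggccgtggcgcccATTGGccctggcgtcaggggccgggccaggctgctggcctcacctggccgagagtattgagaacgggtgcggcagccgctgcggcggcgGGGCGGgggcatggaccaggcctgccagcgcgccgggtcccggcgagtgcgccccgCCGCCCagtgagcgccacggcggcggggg
Elovl7: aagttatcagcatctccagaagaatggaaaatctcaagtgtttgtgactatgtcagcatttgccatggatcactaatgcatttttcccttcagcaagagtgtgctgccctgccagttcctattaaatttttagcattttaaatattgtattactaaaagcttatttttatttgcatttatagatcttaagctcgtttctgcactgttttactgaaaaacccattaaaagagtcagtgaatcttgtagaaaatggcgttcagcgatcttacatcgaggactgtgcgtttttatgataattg

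The 4 windows were not alike in composition. G and C made up 74.3% of the Fa2h window, 79.3% of the Ugt8 window and 74.7% of the Gal3st1 window, but 35.0% of the Elovl7 window, against a median of 51.7% over 33469 promoters (quartiles 44.7% and 60.3%). In the Elovl7 window the bases after the annotated start begin with atg, the letters of a start codon. The annotated start of Elovl7 may thus be that of its coding sequence, and whether its window is a promoter was not tested. The core promoter element GGGCGG, searched on both strands like every motif here, stood in 7 of the 10 windows and in 33.1% of all windows, and CCAAT in 4 of 10 and in 37.5%. Both were added to the search after the sequences were seen. G and C made up 61.7% to 79.3% of the 7 windows with GGGCGG and 35.0% to 52.7% of those without it. The part of base composition in the 7 of 10 was not tested. The SOX core ACAAAG, the type of site that Sox10 binds, occurred in 2 of 10 windows, those of Sptlc1 and Elovl1, and in 18.8% of all. The E-box CACGTG (6.42% of all windows), the EGR core GTGGGCG (7.12%), which shares GGGCG with GGGCGG, and the sterol element TCACNCCAC (1.12%) were in none of the 10 windows. A match or its lack in these windows is a description of letters only.

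Serine palmitoyltransferase, the entry step, has a catalytic subunit pair. Sptlc2 had 160 CPM in AKBA, 220 CPM in model and 123 CPM in sham, and Sptlc1 had 49.1, 55.5 and 38.5 CPM in the same order. Both were highest in model and lowest in sham, Sptlc2 by more. The fold of model over sham was 1.79 (1.75 to 1.84) for Sptlc2 and 1.44 (1.38 to 1.51) for Sptlc1, and these intervals did not overlap.

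Degs1, the desaturase that introduces the double bond of ceramide, had 113 CPM in AKBA, 164 CPM in model and 107 CPM in sham. AKBA lay close to sham here, unlike in Ugt8 and Elovl7. Cers2, the ceramide synthase for very long acyl chains, had 175 CPM in AKBA, 197 CPM in model and 133 CPM in sham, and Elovl1, the elongase that supplies such chains, 143, 161 and 113 CPM. Sgms1, the sphingomyelin synthase, had 67.2 CPM in AKBA, 69.2 CPM in model and 48.9 CPM in sham. In all 4 the 2 crushed nerves were above sham, except that with TMM scaling Degs1 in AKBA was not. From Degs1 (1.53-fold) through Cers2 (1.48), Sptlc1 (1.44) and Elovl1 (1.43) to Sgms1 (1.41), each model to sham ratio had an interval that overlapped that of the next in order.

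**Figure D2:**
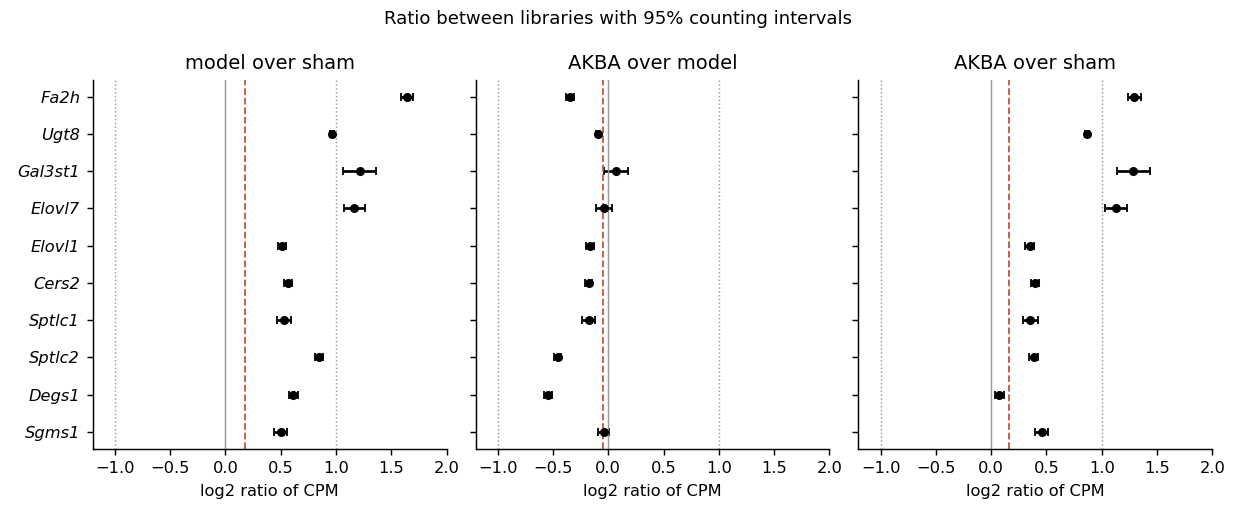
log2 ratio of CPM for each gene in model over sham, AKBA over model and AKBA over sham, with exact 95% counting intervals. The dashed line is the median of all genes (0.18, -0.04 and 0.16 on the CPM + 1 scale), the solid line 0 and the dotted lines 2-fold. In model over sham all 10 points lie right of the dashed line, and in AKBA over model all lie between the dotted lines.

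AKBA against model sets the crushed nerve given AKBA beside the crushed nerve without it. None of the 10 genes was called in either direction, beside 2.69% of all genes called higher and 1.37% called lower. The largest differences were in Degs1 (ratio 0.687, interval 0.670 to 0.705), Sptlc2 (0.727, 0.712 to 0.743) and Fa2h (0.787, 0.767 to 0.808). Degs1 lay lower than all but 6.40% of genes. Ugt8 was at 0.937, and Cers2, Sptlc1 and Elovl1 were between 0.885 and 0.893. Counting error alone covered a ratio of 1 in Gal3st1, Elovl7 (0.927 to 1.02) and Sgms1 (0.937 to 1.01). The median log2 ratio of the 10 was -0.17, against -0.04 for all genes, and 9 of 10 were below 0, beside 57.5% of all genes. With TMM scaling 7 of 10 were below 0, beside 49.2%, since Sgms1 (0.01) and Elovl7 (0.01) then lay just above.

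In AKBA over sham all 10 genes were above 0 by total counts (all but Degs1 with TMM scaling), beside 65.7% of all genes, and the 3 genes past 2-fold in model over sham were past it here too, Fa2h (2.45-fold, 2.36 to 2.55), Gal3st1 (2.44-fold, 2.20 to 2.70) and Elovl7 (2.19-fold, 2.04 to 2.34), beside 5.83% of all genes called higher and 2.08% called lower. No member was called lower. With TMM scaling Elovl7 dropped out (log2 ratio 0.92), leaving 2 of 10 beside 4.05%. Ugt8 stood at 1.82-fold (1.80 to 1.85). The other 6 genes were 1.05-fold to 1.37-fold, and Degs1, the lowest of them, changed sign with TMM scaling (log2 ratio 0.07 and then -0.09). The median log2 ratio of the 10 was 0.42, against 0.16 for all genes, while in model over sham it was 0.72. Both comparisons use the sham library, and the model library also enters AKBA over model, so that the 3 comparisons are not independent of each other.

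Ratios of counts within a library do not depend on how libraries are scaled. They were chosen with the values above already known. For each 100 counts of Ugt8 there were 14.2 counts of Fa2h in AKBA (14.0 to 14.5), 17.0 in model (16.7 to 17.3) and 10.6 in sham (10.2 to 11.0). Fa2h was thus higher relative to Ugt8 in both crushed nerves than in sham, and higher in model than in AKBA. Gal3st1 made 2.01 counts for each 100 of Ugt8 in AKBA (1.91 to 2.12), 1.80 in model (1.70 to 1.90) and 1.51 in sham (1.38 to 1.65).

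Count ratios between other genes of the pathway also differed. For each 100 counts of Elovl1 there were 24.5 of Elovl7 in AKBA, 22.5 in model and 14.3 in sham. Ugt8 had 1197 counts for each 100 of Sgms1, a gene of the competing sphingomyelin step, in AKBA, 1240.3 in model and 902 in sham. Ugt8 was thus higher relative to Sgms1 in both crushed nerves than in sham. These are mRNA counts, and no lipid was measured. Relative to Ugcg, which adds glucose to ceramide in place of galactose, Ugt8 had 1487 counts for each 100 in AKBA, 2136 in model and 855 in sham. For each 100 counts of Sptlc1 there were 326 of Sptlc2 in AKBA (315 to 337), 396 in model (384 to 409) and 319 in sham (306 to 333), so that model stood apart and the intervals of AKBA and sham overlapped.

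Set against the summed counts of 15 myelin protein genes, the 10 genes split. For each 10000 such counts Fa2h had 29.7 in AKBA, 33.7 in model and 25.6 in sham, higher in both crushed nerves. Gal3st1 had 4.20 in AKBA, 3.57 in model and 3.65 in sham, and Elovl7 9.13, 8.37 and 8.83. For both genes the intervals of model and sham overlapped, and those of AKBA and model did not (3.99 to 4.42 and 3.39 to 3.77 for Gal3st1, 8.81 to 9.45 and 8.08 to 8.66 for Elovl7). Ugt8 had 209 in AKBA, 199 in model and 242 in sham.

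The other 6 genes were lower in both crushed nerves than in sham on this scale. Cers2 had 45.4 in AKBA, 45.7 in model and 73.0 in sham, and Degs1 29.3, 38.0 and 58.8. Sptlc1 had 12.8 in AKBA, 12.9 in model and 21.1 in sham, and Sptlc2 41.5, 51.0 and 67.4. The other two, Sgms1 (17.4, 16.0 and 26.8) and Elovl1 (37.2, 37.2 and 61.8), showed the same direction.

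**Figure D3:**
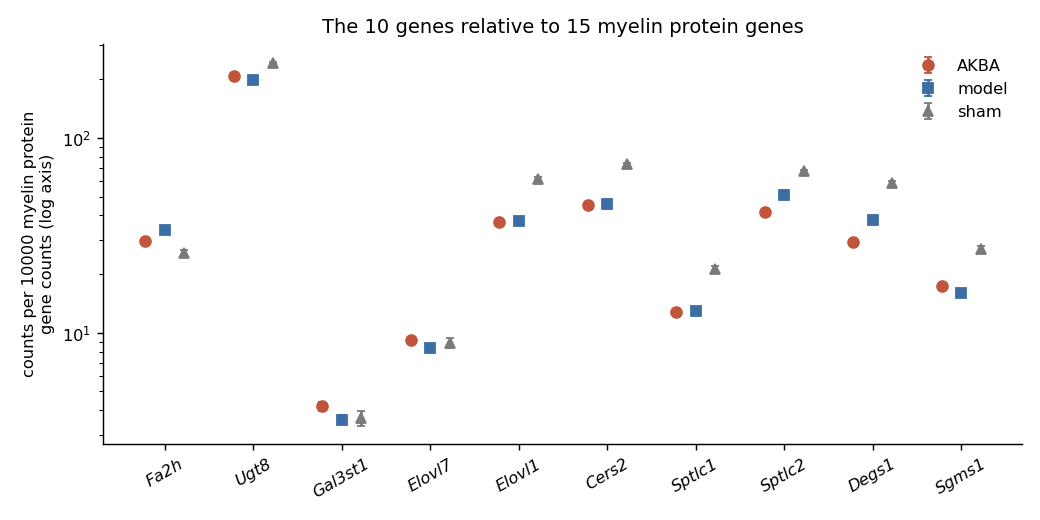
Counts of each of the 10 genes for each 10000 counts of 15 myelin protein genes (log axis) in the AKBA, model and sham libraries, with exact 95% counting intervals. Fa2h is higher in both crushed nerves than in sham, Gal3st1 and Elovl7 are highest in AKBA with model and sham intervals that overlap, and the sham triangle is the highest point for the other 7 genes.

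The transcript table showed how the count of each gene was divided. Fa2h, Sgms1 and Elovl7 each had 1 transcript that could be placed by accession, and it held all of their counts. Ugt8 had 2, of which the minor one held 2.45% of the counts in AKBA (2.34 to 2.57), 1.75% in model (1.66 to 1.85) and 1.55% in sham (1.42 to 1.69). The interval of this share in AKBA lay above those of the other libraries. The minor transcript had 19.7 CPM in AKBA, 15.05 CPM in model and 6.82 CPM in sham. The sources do not state how reads common to several transcripts of a gene were assigned, and no interval of a share covers that step. The main transcript of Gal3st1 held 82.4% of its counts in AKBA (80.3 to 84.3), 78.3% in model (76.1 to 80.5) and 64.3% in sham (59.9 to 68.5). The Gal3st1 counts that no current accession placed were level, at 1.63, 1.77 and 1.496 CPM in AKBA, model and sham, so the difference from sham lay in the placed transcripts.

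For Elovl1, which had 4 transcripts, the main one held 73.4% of the counts in AKBA, 80.3% in model and 77.9% in sham, and the one next in size 17.6%, 12.0% and 12.9%. The Cers2 main transcript held 94.5% in AKBA, 94.3% in model and 94.6% in sham, with overlapping intervals. Sptlc2 was mostly counted on transcripts that no current accession placed. Its placed transcript held 38.1% in AKBA (37.3 to 38.9), 46.5% in model and 46.2% in sham, which is 61.0 CPM in AKBA, 102 CPM in model and 56.7 CPM in sham. The placed transcript of Sptlc2 was thus nearly as low in AKBA as in sham, and the rest of the gene stood at 99.1, 118 and 66.1 CPM.

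Sptlc1 also differed in AKBA. The counts not placed were 616 in AKBA (13.9% of the gene), 56 in model (1.13%) and 43 in sham (1.51%). With placed transcripts only, the log2 ratio of AKBA over model was -0.37 for Sptlc1, against -0.17 for the gene, and -0.74 for Sptlc2, against -0.46. Both stayed short of 2-fold. Per RefSeq, Cers2 overlaps Setdb1 on the other strand, Sptlc2, Degs1 and Elovl7 overlap lncRNA genes and Ugt8 a pseudogene, and reads of such pairs cannot be told apart if the counting ignored strand, a setting the sources do not state.

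**Figure D4:**
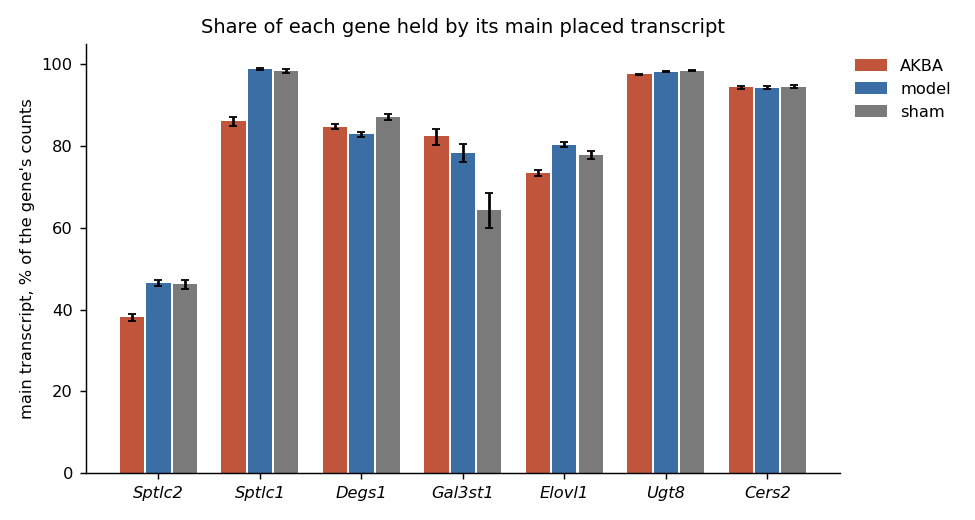
Share of the gene count (%) held by the main placed transcript of 7 genes in the AKBA, model and sham libraries, with exact 95% binomial intervals. The Sptlc2 and Sptlc1 bars are lower in AKBA than in model and sham, and the Gal3st1 bar is lowest in sham. Fa2h, Sgms1 and Elovl7 have 1 placed transcript each at 100% and are not drawn.

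The other genes of the pathway were read from 7 lists. Of 10 other ceramide synthesis genes, 7 passed 1 CPM, with a median log2 ratio of model over sham of 0.41, against 0.18 for all genes. Among them Kdsr, the reductase after serine palmitoyltransferase, had 29.0 CPM in AKBA, 30.8 CPM in model and 20.9 CPM in sham, and Sptssa, the small subunit of serine palmitoyltransferase, 61.3, 70.9 and 53.2 CPM. Sptlc3, the alternative catalytic subunit, was near the limit of detection, at 0, 0.123 and 0.121 CPM, where 0 counts allow up to 0.0333 CPM in AKBA.

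Only Cers1 passed 2-fold among these 7, in model over sham (beside 4.52% of all genes called higher) and AKBA over sham (beside 5.83%). Cers1 is the ceramide synthase typical of neurons and muscle. It had 3.82 CPM in AKBA and 3.55 CPM in model, from 344 and 318 counts, and 0 counts in sham. Since 3 counts, or 0.0404 CPM in sham, is the floor set by an observed 0, Cers1 was at least 94.4-fold higher in AKBA than in sham and at least 87.9-fold higher in model. Its neighbour Gdf1, named after its value was seen and known in mammals to share a transcript with Cers1, had 640 counts in AKBA, 560 in model and 316 in sham, and the sources do not state how reads common to both were assigned. The ORMDL genes, inhibitors of serine palmitoyltransferase, had 0 of 3 called in model over sham, beside 4.52% of all genes called higher and 1.31% called lower, shares at which 3 genes give little to read. Ormdl3 stood at 76.6 CPM in AKBA, 89.1 CPM in model and 88.2 CPM in sham.

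Elongation genes outside the members had medians below that of all genes. The 10 that passed 1 CPM had a median log2 ratio of -0.14 in model over sham and -0.17 in AKBA over sham, with 6 of 10 below 0 in both, beside 28.9% and 34.3% of all genes. Elovl6, which elongates palmitate in lipid-making tissues, was called lower in both. That is 1 of 10, beside 1.31% and 2.08% of all genes called lower. Elovl6 had 22.4 CPM in AKBA, 42.6 CPM in model and 91.5 CPM in sham. It follows the order of the fat cell sums given above, and that relation was not tested.

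Of 7 genes of ceramide transport and other headgroups, 1 was called higher in model over sham, beside 4.52% of all genes. This was Gltp, a cytosolic glycolipid transfer protein gene. It had 73.6 CPM in AKBA, 92.1 CPM in model and 40.9 CPM in sham, and its call was lost with TMM scaling (log2 ratio 0.94). Ugcg stood at 54.1 CPM in AKBA, 40.2 CPM in model and 51.6 CPM in sham. Of 7 genes that supply galactose and sulfate donors, 0 were called in model over sham, which is near what the shares of all genes (4.52% higher, 1.31% lower) would give. Papss1, which makes the sulfate donor of Gal3st1, came near with 182 CPM in AKBA, 196 CPM in model and 98.6 CPM in sham (log2 ratio of model over sham 0.98). Papss1 is named after its value was seen.

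Of 6 ganglioside synthesis genes past 1 CPM, 1 was called lower in model than in sham, beside 1.31% of all genes. This was St3gal5, the GM3 synthase gene, at 28.3 CPM in AKBA, 14.2 CPM in model and 30.1 CPM in sham. Here AKBA lay beside sham. Of 22 breakdown genes, 0 were called in model over sham, not far from the shares of all genes (4.52% higher, 1.31% lower), and their median log2 ratio of 0.22 was near that of all genes. Galc and Arsa, the enzymes that degrade galactosylceramide and sulfatide, had 38.2, 34.6 and 27.5 CPM and 53.2, 59.0 and 39.4 CPM in AKBA, model and sham.

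Psap, the precursor of the activators those enzymes need, had 1920.2 CPM in AKBA, 1471 CPM in model and 1179 CPM in sham. It was highest in AKBA, where the synthesis genes of the galactolipid branch were level with or below model. Of the 22 breakdown genes only Sphk1, a sphingosine kinase gene, was called in AKBA over model and in AKBA over sham. Sphk1 was higher in both, beside 2.69% and 5.83% of all genes called higher. It had 3.35 CPM in AKBA, 1.09 CPM in model and 0.944 CPM in sham. It rests on low counts, with intervals of 2.43 to 3.89 and 2.73 to 4.68 for the 2 ratios.

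**Figure D5:**
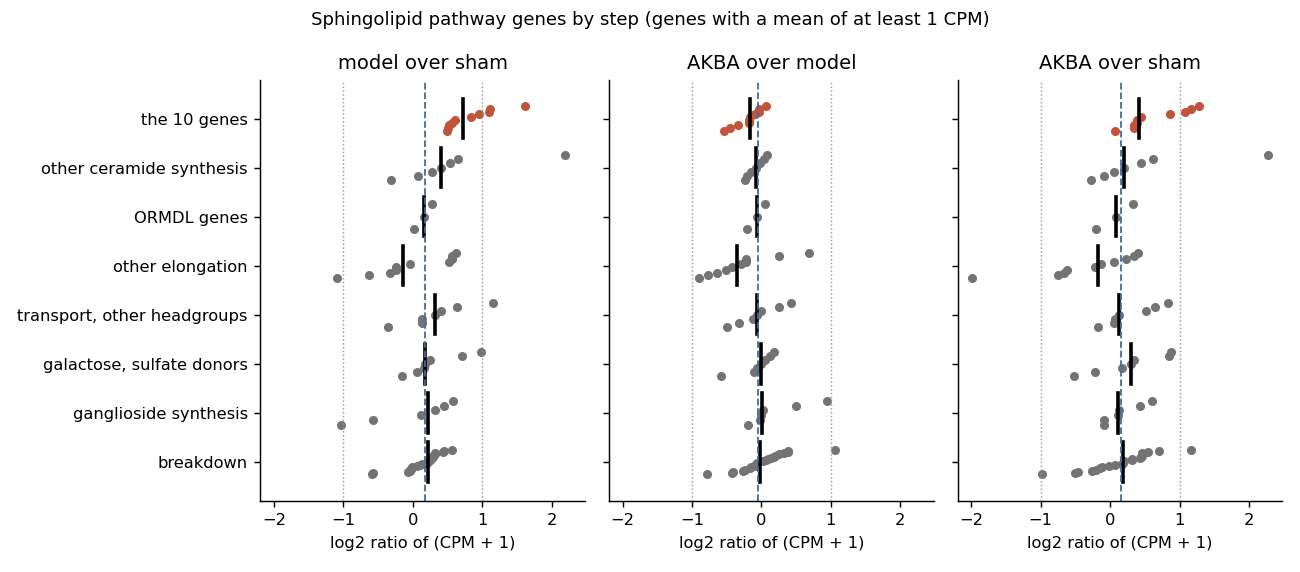
log2 ratio of (CPM + 1) for the 10 genes and for 7 lists of other pathway genes, 1 point a gene with a mean of at least 1 CPM, in model over sham, AKBA over model and AKBA over sham. Black bars are list medians, the dashed line is the median of all genes and the dotted lines are 2-fold. The 10 genes have the highest median in model over sham (0.72), and the other elongation genes the lowest (-0.14).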

How the data were processed

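The deposited mRNA tables hold counts, whole numbers per gene and per transcript with no normalization. In the authors' files the column of the model library carries 2 extra text characters after each value, so its unit was entered as other; these characters were removed. Columns were assigned from the key in the series text. Among the tools, bcl2fastq 2.0, HISAT2, StringTie, DESeq2 and limma appear without roles in the submitters' processing notes, beside the mouse build mm10, although the rows carry rat identifiers. The genome aligned to was not settled. Probes removed ribosomal RNA before sequencing, per the labels' protocols.

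From these counts, CPM, log2 ratios of (CPM + 1) and exact 95% Clopper-Pearson intervals of ratios and shares were computed (Python 3.11.15, scipy 1.17.1). Poisson limits were used for levels in the plot of levels. All intervals describe counting error alone, since each group had 1 library. PCR copies of a molecule are counted separately, which can make the intervals too narrow even for counting error. The background was formed by genes averaging 1 CPM or more, and 2-fold was the call. Scaling factors came from edgeR 4.0.16 (TMM) and DESeq2 1.42.0. The calculation was also run on simulated counts with known changes, which checks the arithmetic but not the unmeasured spread between animals. Transcripts were placed in genes by RefSeq accession (GRCr8, names only), and 2 of 164 listed symbols were matched by a synonym. All 10 members were named, with pathway genes past 2-fold and 8 fixed partners. Members and lists were chosen with earlier results of these data known. The lncRNA tables were not used here.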

Additional observations from a re-analysis of the deposited data

How the results depend on the processing

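No paired analysis was possible because each group had 1 library. The number of members at least 2-fold higher in model over sham was 3 with total counts, but 1 with TMM scaling and 1 with DESeq2 size factors, which left Fa2h, and 2 (Fa2h and Elovl7) when ribosomal RNA, fat, muscle, skin and hair rows were left out of the totals. The median log2 ratio of the members in that comparison was 0.72 with total counts, 0.51 with TMM, 0.52 with DESeq2 size factors and 0.60 with those reduced totals. In AKBA over sham it was 0.42, 0.26, 0.26 and 0.35 in the same order. The median of all genes moved with these scalings, so that the members stood 0.54, 0.53, 0.53 and 0.53 above it in model over sham. The other counts of called members, and the median in AKBA over model, stayed within 1.5 times or within counting error under all 7 alternatives, which also included a pseudocount of 0.1, no level filter, a 5 CPM filter and sums of transcripts. Of 210 values of single members under these alternatives, 77 moved by more than counting error, 6 changed sign and none of these 6 had been past 2-fold. They were Sgms1 and Elovl7 in AKBA over model with TMM and with the reduced totals, and Degs1 in AKBA over sham with TMM and with DESeq2 size factors. By total counts these ratios lay near 0, at -0.041 for Sgms1, -0.036 for Elovl7 and 0.073 for Degs1. TMM scaling shifted the median of all genes by 0.05 in AKBA over model and by -0.15 in AKBA over sham. Why the scalings differ was not tested. Sums of placed transcripts moved Sptlc2 to -0.74 in AKBA over model (-0.46 by gene) and to 0.10 in AKBA over sham (0.38 by gene), and Sptlc1 to -0.37 in AKBA over model (-0.17 by gene). Depth was not the limit for these genes, whose lowest count was 493, whereas the spread between animals is not measured.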
